A study of Apis mellifera with 12 samples.

Results

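The honey bee (Apis mellifera) miRNAs numbered miR-3715 to miR-3799 were described in worker brain. Members were taken by name alone from the deposited table, with any letter suffix allowed, which gave 88 of 168 miRNA probes and covered all 85 numbers of the range. The 88 comprised 82 names with no letter and 3 lettered pairs, miR-3716a and b, miR-3718a and b, and miR-3747a and b. The other 80 probes are for miRNAs outside this number range. Small RNA came from brains of 15-day-old workers that had been injected in the abdomen as newly emerged adults with 2 µL of double-stranded RNA at 10 µg/µL. The 6 dsVg pools received RNA against vitellogenin, the yolk precursor, and the 6 dsGFP pools received RNA against green fluorescent protein as a sham control, so every bee of both groups was injected. Each pool joined small RNA from 5 brains, 200 ng per bee, on its own array. The labels call the samples forager brains and give no behavioural record, and vitellogenin mRNA was not analysed here.

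miRNAs are RNAs of roughly 22 nucleotides that guide Argonaute proteins to messenger RNAs. Pairing of the seed, bases 2 to 8 from the 5′ end, with the messenger decides most targets, and the usual outcome is lower protein output. The miRNAs in this number range were first named from honey bee, and no target or function is given here for any of them. On these arrays each miRNA has 18 spots, and the median coefficient of variation among those spots was 3.61% to 7.65% per array over the 88 miRNAs. It exceeded 20% for 19 of the 1056 values (88 miRNAs on 12 arrays), 9 of them on dsGFP pool 2. The widest was miR-3780 on that pool (144.3%), where the 18 spots had a median intensity of 279.8 and a highest value of 2871.

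The mature sequences, copied from the deposited array layout and with the seed in capitals, are shown for the members detected on at least 9 of 12 arrays, since these are the ones measured on most of the arrays.
miR-3789: aUCUGGUGcucggugaggugag
miR-3719: uACGGAUUgcgugacuuuucga
miR-3785: uACCCUGUaacguccugagacu
miR-3783: uACUUUCAauuguuugaugaggu
miR-3718a: uCCCCUGUccugucccgauag
miR-3745: cGGGUGCCaccccccggcccgg
No 2 of these 6 have the same seed, and no seed of the 88 members was shared with any of the other 80 miRNAs on the array.

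Most of the 88 miRNAs lay close to the empty spots in brain. A miRNA was counted as detected on an array when the mean intensity of its spots exceeded the 95th percentile of the 608 empty spots of that array, since the tables hold no background column. By this count 2 of 88 members (2.27%), miR-3719 and miR-3789, were detected on all 12 arrays, against 31 of the 80 other miRNAs (38.8%). At least 6 arrays detected 21 members (23.9%), against 63 of the others (78.8%). The 88 miRNAs also lay low in the deposited table of processed intensities, where 4 of them had a mean above 100 (miR-3789, miR-3719, miR-3785 and miR-3783) and 41 of the 80 others did.

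The number of members above the empty spots differed widely between arrays, and it did so within both treatment groups. In the dsGFP pools 1 to 6 it was 85, 6, 48, 64, 7 and 10, and in the dsVg pools 1 to 6 it was 88, 50, 30, 5, 2 and 6. The arrays fell into 2 kinds, set by whether over 80 of all 168 miRNAs were detected. On 6 of the arrays, which were pools 1, 3 and 4 of dsGFP with pools 1, 2 and 3 of dsVg, the median member was 1.02 to 1.17 times as bright as the median empty spot, and 30 to 88 members were detected. On the other 6 arrays the ratio was 0.702 to 1.05, and 2 to 10 members were detected. Since 88 of the 168 miRNAs are members, the contrast in their counts is partly built into the kinds. The kinds also depend on the threshold. Above the median empty spot lay 83 and 82 members on dsGFP pools 5 and 6, of the second kind, and 64 on dsVg pool 3, of the first. The other 80 miRNAs changed less between the kinds, with 67 to 80 detected on the first and 32 to 50 on the second. Each kind held 3 pools of each group.

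**Figure D1:**
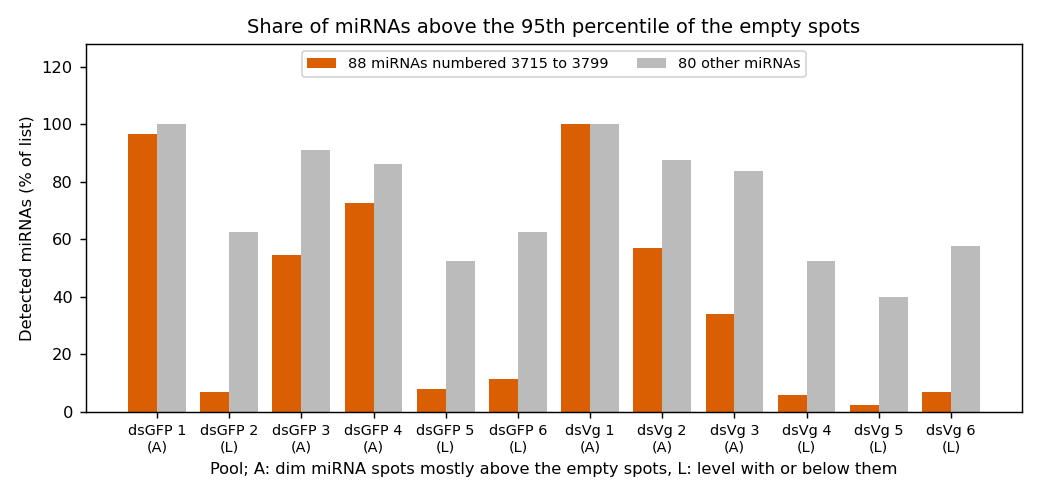
Bars give the percent of miRNAs whose mean spot intensity exceeded the 95th percentile of the empty spots, for each of the 12 pools on the x axis. The 88 miRNAs reached 34.1% to 100% on the arrays marked A and 2.27% to 11.4% on those marked L, whereas the 80 others reached 83.8% to 100% and 40% to 62.5%.

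The count of 21 members rested on the first kind of array. Exactly 6 arrays detected 12 of the 21, and leaving out any one of the 6 arrays of that kind lowered the count to 9 or 10. At least 6 detections were still required after an array was left out. A member detected on those 6 arrays alone therefore dropped out by the rule itself. On the second kind, 75 of 88 members were detected on no array and 13 on at least 1. Of the 80 others, 27 were detected on no such array and 53 on at least 1. With the median of the 18 spots in place of the mean, 8 members were detected on at least 1. The 5 that dropped out were miR-3730, miR-3739, miR-3743, miR-3757 and miR-3780, each detected on a single such array by the mean, and for all but miR-3739 the coefficient of variation among the spots there was 31.5% to 144.3%. By the mean and by the median alike, 6 members were detected on at least 3 such arrays. These were miR-3719 and miR-3789 on 6 of 6, miR-3783 and miR-3785 on 5, miR-3718a on 4 and miR-3745 on 3. Of the 80 others, 47 were detected on at least 3 such arrays by the mean. A baseline of the median plus 3 median absolute deviations of the 84 dimmest miRNA probes of each array was chosen after seeing the data. Against it the count of members per array was more even, at 9 to 24. Members made up 65 of the 84 dimmest probes by mean signal, so they largely set this baseline. An even count is therefore partly built in. The baseline was passed on all 12 arrays by 4 members (miR-3719, miR-3745, miR-3783 and miR-3789) and by 40 of the 80 others.

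The brightest members were miR-3789 and miR-3719, which held ranks 31 and 32 of the 168 probes by mean normalized signal and were the only members among the 42 brightest. The order describes signal and not abundance, because probes differ in how well they bind. Scanner intensity of miR-3789 ran from 311 to 1658 over the 12 arrays, or 1.365 to 5.23 times the 95th percentile of the empty spots. For miR-3719 the intensity ran from 409 to 1308, or 1.39 to 5.28 times that percentile. The multiples depend on each array's background, which is included in the intensities.

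Next came miR-3785, miR-3783 and miR-3718a, at ranks 44, 45 and 47. Each was below the empty spots' 95th percentile on dsVg pool 5, at 0.634, 0.668 and 0.721 times that value, and miR-3718a was also below it on dsVg pool 4, at 0.924 times. In the deposited table the medians over the 12 pools were 235.5 for miR-3789, 223.5 for miR-3719, 133.5 for miR-3785, 93 for miR-3783 and 64.5 for miR-3718a. Outside the members named above, miR-3739, miR-3786 and miR-3730 were detected on 7 arrays each by the mean of the spots. The 67 members detected on fewer than 6 arrays had mean normalized log2 signals of 6.40 to 6.89, and 62 of them ranked among the dimmest 84 of all 168 probes.

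**Figure D2:**
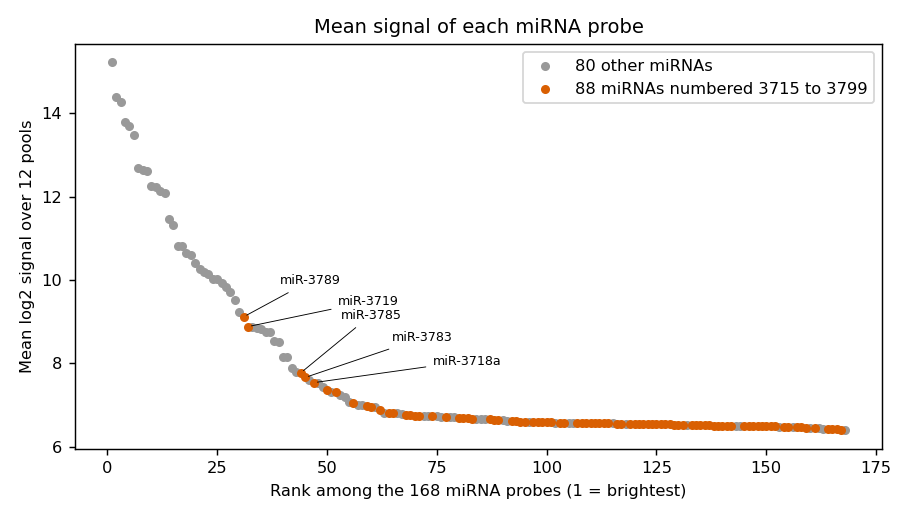
Each point is 1 miRNA probe, with its rank on the x axis and its mean normalized log2 signal over 12 pools on the y axis. The 88 miRNAs run from 6.40 to 9.12, and 65 of them lie among the dimmest 84 probes.

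Detection of the 88 miRNAs was more frequent at higher GC content. Of 32 members with at most 40% G and C in the mature sequence, 1 was detected on at least 6 arrays (3.12%). The share was 4 of 23 between 40% and 50% (17.4%), 9 of 19 between 50% and 60% (47.4%) and 7 of 14 above 60% (50%). The last 2 bins hold fewer than 20 miRNAs each. Within single arrays, Spearman's correlation between GC content and intensity across the 88 miRNAs ran from 0.00506 on dsVg pool 1 to 0.755 on dsVg pool 4. On dsVg pool 4 only 5 of the 88 were detected, and the median member was 0.723 times as bright as the median empty spot. The correlation there is thus mostly among undetected miRNAs and does not describe detection. The correlations describe probes that share an array and are not independent replicates. The exception at low GC was miR-3783, at 30.4%, which was detected on 11 arrays, and the most GC-rich member was miR-3745, at 90.9%, which was detected on 9.

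**Figure D3:**
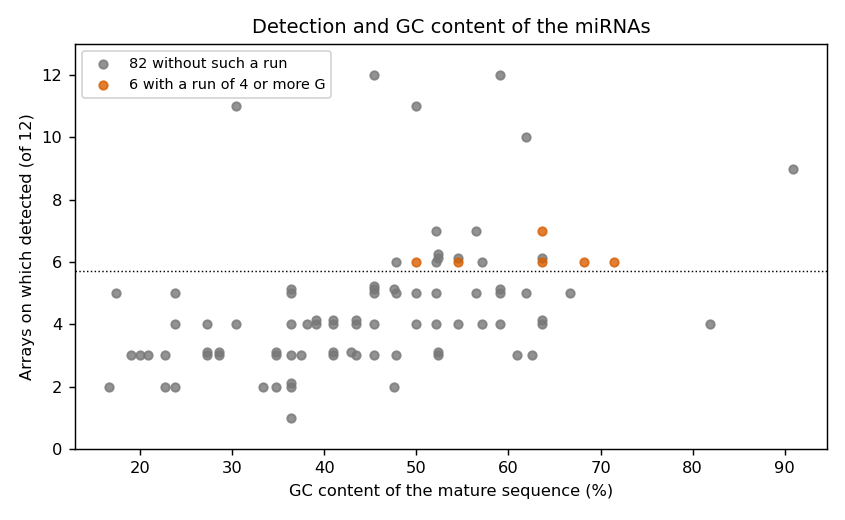
Each point is 1 of the 88 miRNAs, with GC content in percent on the x axis and the number of arrays on which it was detected on the y axis (points that would coincide are shifted slightly upward, and the dotted line separates 6 or more arrays from fewer). Those with at most 40% GC lie below the line except miR-3783, and the 6 with a run of 4 or more G all lie above it.

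A run of at least 4 G occurs in 6 of the 88 mature sequences, and this group was picked out after its values had been seen, so it is given as a description without a test. Runs of 4 or more G are in capitals.
miR-3718b: ucgggacaggacaGGGGacaga
miR-3739: uugggaGGGGGagagagcagcu
miR-3741: acgagaGGGGGagagagaagua
miR-3751: ggguggugguggaagucGGGG
miR-3776: aggaGGGGGGGagagagaagcg
miR-3796: gauccuaaGGGGaggagaggauuu
All 6 were detected on at least 6 arrays, against 15 of the 82 members without such a run (18.3%). The GC content of the 6 was 50% to 71.4%, and detection was more frequent at higher GC content. The part of GC content in this contrast was not tested. None of the 6 reached 3 arrays of the second kind, and 5 were detected on none of those. Probes for miR-3741 and miR-3776 share a stretch of 14 bases and those for miR-3739 and miR-3741 one of 13, so signals of these 3 may not be separate measurements.

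The G-run miRNAs were high in the same pools. The 3 highest of 12 normalized values included dsGFP pool 3 for all 6, dsVg pool 3 for 5 and dsVg pool 5 for 4. For miR-3739 the log2 signal in the dsGFP pools had a lowest, median and highest value of 6.64, 7.10 and 8.27, and in the dsVg pools of 7.03, 7.28 and 7.88. The groups overlapped almost fully, and the highest value belonged to dsGFP pool 3. The C-rich miR-3718a was also highest in dsGFP pool 3 (8.40) and dsVg pool 3 (8.27). Other members without a G run peaked in dsGFP pool 3 too. Among them were miR-3767 (6.93, with 23.8% GC), miR-3792 (6.81), miR-3759 (6.74) and miR-3717 (6.705). Others did not, such as miR-3733, at 6.53 there and 7.81 in dsGFP pool 5. How many members without a run peaked there was not counted, so the pattern is not particular to G runs. The correlation with GC content lay between 0.619 and 0.65 on dsGFP pool 3 and dsVg pools 3 and 5. It was higher only on dsVg pool 4 (0.755), and its part in this pattern was not tested.

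**Figure D4:**
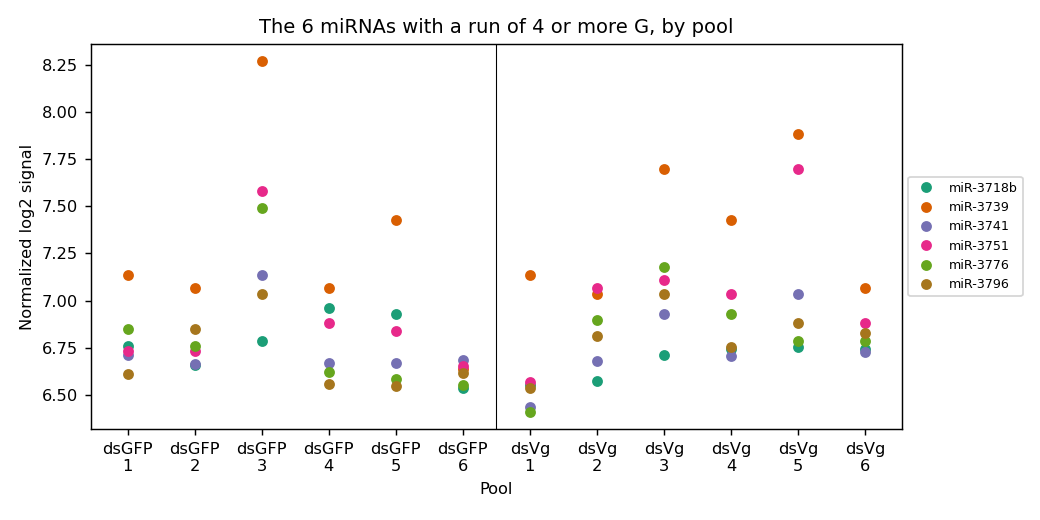
Points give the normalized log2 signal of the 6 miRNAs with a run of 4 or more G in each of the 12 pools on the x axis, dsGFP left of the line and dsVg right of it. In dsGFP pool 3 the signal of miR-3739 reached 8.27, and all 6 miRNAs had 1 of their 3 highest values there.

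Some members are related by sequence or by position. The mature sequence of miR-3718b contains an 18-base stretch that is the reverse complement of miR-3718a, and the genes of both lie together in the RefSeq gene table of assembly Amel_HAv3.1. Of this pair, miR-3718a was detected on 10 arrays and miR-3718b on 6. Only 2 seeds were shared within the group, each by 1 pair, and these are printed with the seed in capitals to show how the rest of the sequence differs.
miR-3749: uGGAAUGGcccuuucaccuuccc
miR-3794: uGGAAUGGaagaggacguuucc
miR-3748: cGUCCGUUucaaaguaaaacuu
miR-3753: uGUCCGUUucgggacucgaccg
Both pairs were dim. The first was detected on 5 and 4 arrays and the second on 2 and 4, and no array of the second kind detected any of the 4. The lettered pairs miR-3716a and miR-3716b (2 arrays each) and miR-3747a and miR-3747b (3 and 4 arrays) were equally near the empty spots.

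The gene table held 76 of the 88 members. It was used for names and neighbours only, because the sources used here do not name the build behind the array. A miRNA gene lay within 10 kb of another miRNA gene for 8 members. The gene of miR-3730 lies beside those of miR-277 and miR-34, conserved miRNAs, of which miR-34 is known in flies for a role in the ageing brain. Its 2 neighbours were detected on all 12 arrays and miR-3730 on 7, 6 of them of the first kind. The gene of miR-3791 lies among those of miR-318, miR-2944, miR-9c and miR-279b. A gene listed as Mir3478 lies there too and has no value here. The 5 miRNAs with a value were near the empty spots, with miR-3791 detected on 6 arrays, miR-2944 on 6, miR-318 and miR-279b on 5 each and miR-9c on 3. The genes of miR-3719 and miR-3720 lie within the span of the same protein-coding gene, and here miR-3719 was detected on 12 arrays and miR-3720 on 5. The pair miR-3735 and miR-87 was singled out after its values were seen: they share 12 bases, miR-87 was detected on 12 arrays, and miR-3735 was detected on 4, all of the first kind.

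The main comparison asked whether RNA interference against vitellogenin went with a different level of these miRNAs in the brain. With limma on quantile-normalized log2 signals, 0 of the 21 tested members had an adjusted p under 0.05, where the background share over all 84 tested miRNAs was also 0%. At an unadjusted p under 0.05, 0 of 21 members passed with limma and 0 with the exact permutation test, against 3.57% of all tested miRNAs with limma. The dsGFP and dsVg pools overlapped for all 21 members, and groups without overlap made up 0% of all 84. Whether pools came from separate colonies is not given, so the p-values measure the spread between these pools.

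The signal of miR-3785 stood farthest from controls relative to its error. Its log2 signal in the dsGFP pools had a lowest, median and highest value of 7.70, 8.09 and 8.27, and in the dsVg pools of 6.73, 7.66 and 8.18. The control pools were close together, while dsVg pools 1, 4 and 5 lay below all of them. On dsVg pool 5 miR-3785 was not detected, at 0.634 times the 95th percentile of the empty spots. On dsVg pool 1 all 88 members were detected, and the intensity of miR-3785 was 365.1 beside 356.9 for the median member. Both values therefore lay close to the background. Means were 8.004 ± 0.25 and 7.54 ± 0.53 (SD, n = 6), a difference of -0.46 (SE 0.23, 95% interval -0.96 to 0.03), with 5 of 6 dsVg pools below the control mean. The adjusted p was 0.666 with limma, and the exact two-sided permutation p was 0.0844. The difference was -0.30 without dsVg pool 1, and -0.093 without normalization, -0.15 under median scaling, -0.28 under scaling to the 75th percentile and -1.62 with plain background subtraction.

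For miR-3789 the dsGFP pools had 8.002, 9.61 and 10.91 as lowest, median and highest log2 signal, and the dsVg pools 7.43, 8.74 and 9.95. Both groups spread over more than 2 log2 units and overlapped over most of that range. Means were 9.53 ± 1.04 and 8.70 ± 0.91 (SD, n = 6), a difference of -0.83 (SE 0.52, 95% interval -1.96 to 0.30), with 5 of 6 dsVg pools below the control mean. The adjusted p was 0.772 with limma and the exact permutation p 0.180. The difference was -0.76 within the first kind of array and -0.90 within the second. It was -1.39 with arrays weighted by quality (adjusted p = 0.120 with limma), the adjusted p lying between 0.062 and 0.996 over all alternatives.

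The signal of miR-3719 tended the other way. Its lowest, median and highest log2 signals were 8.18, 8.64 and 9.20 in the dsGFP pools and 7.64, 9.08 and 10.39 in the dsVg pools. The dsVg pools were the more scattered, holding both the lowest normalized value (pool 3) and the highest (pool 5) of all 12. Relative to the empty spots the order of these 2 pools was the reverse. The intensity was 4.08 times the 95th percentile of the empty spots on dsVg pool 3 and 2.11 times on dsVg pool 5. Intensities of 573.5 on dsVg pool 1 and 568.2 on dsVg pool 3 became normalized values of 10 and 7.64. Means were 8.63 ± 0.37 and 9.14 ± 1.00 (SD, n = 6), a difference of 0.51 (SE 0.40, 95% interval -0.36 to 1.39), with 5 of 6 dsVg pools above the control mean. The adjusted p was 0.772 with limma and the exact permutation p 0.260. Leaving out dsVg pool 5 gave 0.26, dsVg pool 1 gave 0.34 and dsVg pool 3 gave 0.81. It was 0.18 with array weights and 0.12 under scaling to the 75th percentile of the miRNAs detected on all arrays.

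**Figure D5:**
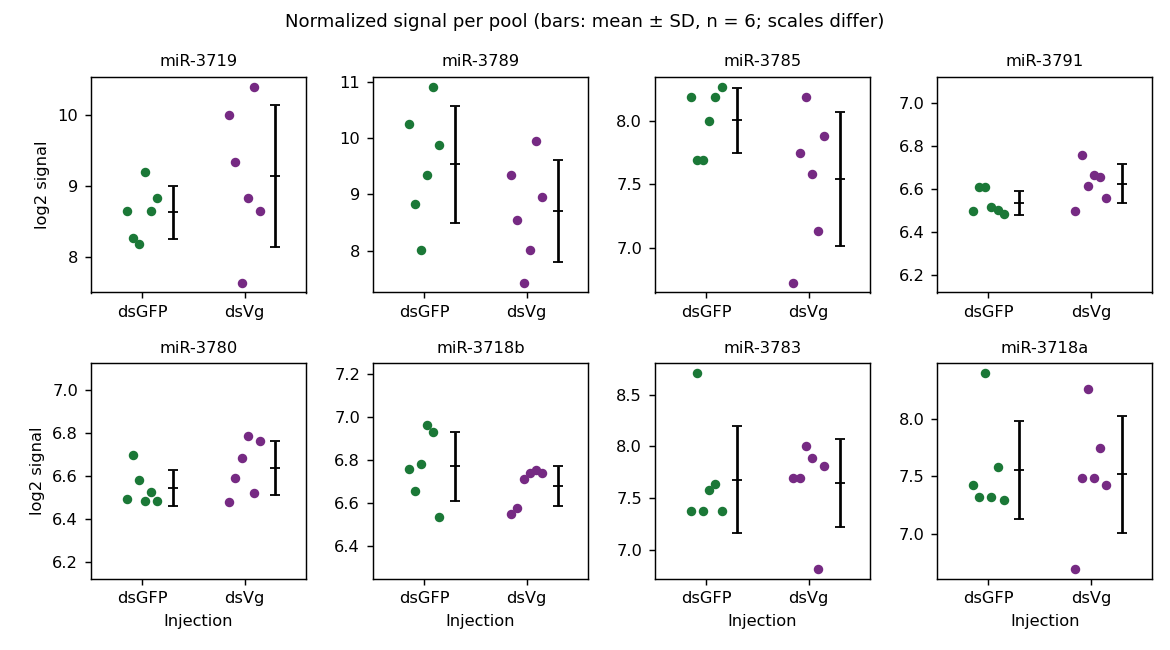
Points give the normalized log2 signal of 8 miRNAs in the 6 dsGFP and 6 dsVg pools, with the mean ± SD (n = 6) at the right of each group, on scales that differ between panels. The groups overlap in every panel, and the spread of miR-3789 and miR-3719 exceeds 2 log2 units in at least 1 group.

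Smaller differences were found for the remaining members. The signals of miR-3783 and miR-3718a differed by -0.03 (SE 0.26) and -0.04 (SE 0.26), with adjusted p-values of 0.940 and 0.935 with limma. Both signs turned under other scalings, to 0.19 and 0.14 with median scaling, and single pools carried them. Without dsGFP pool 2 the difference of miR-3783 was 0.18 and without dsVg pool 5 it was 0.14, while that of miR-3718a was 0.13 without dsGFP pool 3 and 0.13 without dsVg pool 1. For miR-3791, miR-3780 and miR-3718b, each detected on 3 arrays per group (miR-3780 on dsGFP pool 2 by the mean of its spots and not by their median), the differences were 0.09 (SE 0.07), 0.09 (SE 0.08) and -0.09 (SE 0.09), with an adjusted p of 0.772 each with limma. The first 2 turned to -0.088 and -0.059 under scaling to the 75th percentile, and the last to 0.026 under median scaling.

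Over the 21 tested members, 11 had a higher and 10 a lower mean signal in the dsVg pools, with a median difference of 0.01, beside 45 and 39 and a median of 0.03 over all 84 miRNAs. This split changed with the processing. It was 19 higher and 2 lower without normalization, where the median of all 84 was 0.15, and 17 and 4 with median scaling (0.09). It was 7 and 14 under scaling to the 75th percentile of all probes (-0.04), and 1 and 20 when that percentile was taken over the miRNAs detected on all arrays (-0.31). Other splits were 16 and 5 in the deposited table (0.09) and 8 and 13 with cyclic loess (-0.01). Plain subtraction of background also gave 8 and 13, where the median was -0.20 over the members and 0.01 over all 84. For 19 of 21 members the 95% interval excluded a 2-fold change in signal, the exceptions being miR-3719 and miR-3789. The intensities still hold background, so an interval on the signal of a dim miRNA does not bound the change in its abundance. The number of detected members was 36.7 ± 33.9 in the dsGFP pools and 30.2 ± 33.9 in the dsVg pools (SD, n = 6), a difference of -6.5 that was smaller than the spread between pools. It was 3.17 without dsGFP pool 1 and -18.1 without dsVg pool 1, and it was -9.67 within the first kind of array and -3.33 within the second.

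Tissue identity was checked with short lists of miRNAs. Of 6 brain miRNAs (miR-124, miR-137, miR-1000, miR-276, miR-2796 and miR-7), 4 were detected on all 12 arrays and the other 2 on 11. Muscle miRNAs (miR-1 on 11 arrays, miR-133 on 12) and gut or fat body miRNAs (miR-275 on 12, miR-305 and miR-989 on 10, miR-375 on 9) were detected too. The summed linear signal of the brain list ran from 28550 to 38420 where dsGFP was injected and from 28340 to 38560 where dsVg was. That of the muscle list ran from 574.5 to 1310 and from 517 to 1231, and that of the gut and fat body list from 1400 to 1972 and from 1418 to 3846. Their part in the results was not tested.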

How the data were processed

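Per the labels' protocols, small RNA was poly(A)-tailed, tagged and stained with Cy3 by a service provider, 1 array per pool. The deposited scanner tables give a linear intensity per spot (3968 spots, 18 for each miRNA), with background still included. Per the file headers, the intensity of dsGFP pool 1 is a median, and the headers of the other arrays do not name a median. For dsVg pool 5, 100% of the intensities are whole numbers. The authors' table of processed intensity has no normalization method given in the sources used here, and it was used as an alternative as log2(value + 1).

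Intensities were corrected with normexp (offset 50; limma 3.58.1, R 4.3.3), each probe was given the mean log2 value of its spots, and quantile normalization was run over the 168 probes. miRNAs detected on at least 6 arrays (84) were tested with lmFit and eBayes, dsVg minus dsGFP, with Benjamini-Hochberg adjustment over all 84. Single members also received an exact two-sided permutation test over 924 assignments, whose smallest p is 0.00216. Per-pool values were given for members detected on all arrays, the 6 with the smallest p and the 5 brightest. The members and lists were chosen with earlier results of these data known. The number of arrays limits the precision. None of the 30 pairs of arrays within a group looked like one hybridization deposited again, with chi-square values between 35.4 and 4270 times the degrees of freedom. Pool numbers were not treated as pairs, since the correlation of same-numbered pools' deviations ran from -0.27 to 0.53. Alternatives covered background, scaling, detection, weights, array kind and single pools.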

Additional observations from a re-analysis of the deposited data

Results flagged for a closer look

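Within groups of 6 pools, 28 sets of values were searched for a pool that stood apart by Dixon's ratio. These were 16 sets from the 8 miRNAs whose values by pool are given by rule, 10 from the other miRNAs with a run of at least 4 G, and 2 from the number of members detected. Marked were 3 of the 16, 3 of the 10 and 0 of the 2. Chance alone marks about 1 in 20 sets that are chosen without regard to their values. The 16 sets came from miRNAs chosen by detection, p-value and brightness in these same data. The 10 sets came from miRNAs picked out after their values had been seen. Both counts are therefore descriptions and are not set against chance. For miR-3783, dsGFP pool 2 was high at a log2 signal of 8.71, against 7.38 to 7.64 in the other control pools, and dsVg pool 5 was low at 6.81, against 7.70 to 8.002 in the other dsVg pools. The spots behind this low value disagreed, with a coefficient of variation of 59.4%, a median intensity of 362.5 and a highest spot of 1393. With the median of the spots the value was 6.73, against 7.70 to 8.004. The other 4 all concerned dsGFP pool 3. There miR-3718a was at 8.40 against 7.29 to 7.58, miR-3751 at 7.58 against 6.66 to 6.88, miR-3776 at 7.49 against 6.55 to 6.85, and miR-3741 at 7.13 against 6.66 to 6.71. Of these, miR-3741, miR-3751 and miR-3776 carry a run of at least 4 G, and miR-3741 and miR-3776 share 14 bases, so the 4 are not independent.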

How the results depend on the processing

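No member passed an adjusted p of 0.05 under any of the 31 alternatives fitted with limma. Over all tested miRNAs, 1 of 84 passed it with array weights. At an unadjusted p under 0.05 with limma, the count rose from 0 of 21 to 4 with array weights, where 12 of all 84 miRNAs passed. It rose to 1 with either scaling to a 75th percentile (2 of 84 each), median scaling (1 of 84) and cyclic loess (7 of 84). It was also 1 with the median of the spots and the replicate block (3 of 84 each), and within the second kind of array (5 of 84). With 1 pool left out it was 0 to 2, beside 1 to 12 of all 84. The median difference of the tested members moved to 0.13 without normalization, -0.20 with plain subtraction, -0.16 over members detected on all arrays and -0.33 under scaling to the 75th percentile of the miRNAs detected on all arrays, and lay between -0.018 and 0.041 with 1 pool left out. Of 88 members, 12 were detected on at least 6 arrays at the 99th percentile of the empty spots, 9 at their mean plus 3 SD, 88 at their median and 13 against the 84 dimmest probes. With 1 pool left out and at least 6 arrays still required, the count was 9 to 21. On all arrays 4 were detected against the 84 dimmest probes, and 2 to 4 with 1 pool left out. The difference in detected members was 4.67 at the 99th percentile, 3.17 at 3 SD and -30.7 at the median. The sign of miR-3791 and miR-3780 turned under scaling to the 75th percentile (-0.088, -0.059), over all-array miRNAs -0.36 and -0.33. That of miR-3718b turned with median scaling (0.026), no normalization (0.084) and within the second kind (0.038). That of miR-3718a turned with the 75th percentile (0.014), median scaling (0.14), no normalization (0.20), the deposited table (0.12), the median of the spots (0.046), array weights (0.047) and within the second kind (0.16), and ran from -0.19 to 0.13 with 1 pool left out. That of miR-3783 turned with the 75th percentile (0.063), median scaling (0.19), no normalization (0.25), plain subtraction (0.42), no background correction (0.0025), the deposited table (0.15), array weights (0.24), without dsGFP pool 1 and dsVg pool 5 (0.080) and within the first kind (0.35), and ran from -0.098 to 0.18 with 1 pool left out. Signs of miR-3785, miR-3789 and miR-3719 held under all alternatives run. With the replicate block the difference of miR-3789 was -0.83 (adjusted p = 0.062 with limma), and 1 of 12 pools correlated best with the pool of its own number, so the numbers were not used as pairs. The causes of these shifts were not tested. Where a member was not above the empty spots, a difference in its abundance was not measurable here.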

Other observations

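In the RefSeq gene table of assembly Amel_HAv3.1, 56 of the 76 matched members lay within the span of a protein-coding gene, 3 within a long noncoding RNA gene alone and 17 in neither. The strand of these genes was not used here. The spanning gene had a symbol for 5 members. The gene of miR-3716a lies within E74 and that of miR-3782 within Br-c, transcription factors that respond to the moulting hormone ecdysone in insects. The first was detected on 2 arrays and the second on 3, all of the kind on which most miRNAs exceeded the empty spots. The gene of miR-3786 lies within GluCl, a glutamate-gated chloride channel of neurons and muscle, and miR-3786 was detected on 7 arrays. The gene of miR-3790 lies within EphR, a receptor for axon guidance cues, and that of miR-3766 within Nedd9, a scaffold protein of cell adhesion. These were detected on 2 and 4 arrays.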
